A study of Rattus norvegicus with 9 samples.

Results

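The liver makes most of the complement and coagulation proteins of blood plasma, and 39 genes for these factors and their inhibitors were followed in liver RNA of rats on 3 regimens. The members were taken from a list of gene symbols, and all 39 listed symbols were rows of both deposited tables, among 15565 genes that the tables share. The 9 libraries came from the livers of male rats, labelled as strain SD, with 3 libraries in each group. The normal diet group ate a normal diet, the high-fat diet group ate a high-fat diet for 8 weeks to bring on non-alcoholic fatty liver disease, and the third group received SCL, which stands for the plant Smilax china L. The labels do not state the diet, dose or duration of the SCL-treated rats, nor the age of any rat. The design text writes SCS where the sample labels write SCL, and the names were taken as the same group. No label says that each library came from a separate animal, so p-values measure only the spread between these libraries, which may be technical.

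Complement is a chain of plasma proteins that marks and lyses targets. The lectins Mbl1 and Mbl2 and the proteases C1r, C1s, Masp1 and Masp2 start it, C2, C4 and factor B build the enzymes that cleave C3 and C5, and C6, C8 and C9 assemble into the membrane attack complex. Coagulation is a second protease chain that ends in thrombin, the product of F2. It is limited by the serpins antithrombin (Serpinc1) and heparin cofactor II (Serpind1) and by the protein C system, and plasmin, made from Plg, dissolves the clot. Hepatocytes transcribe most of these genes under liver-enriched transcription factors, and several are acute-phase genes.

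Stretches of some member promoters that carry matches to binding motifs of hepatocyte transcription factors are printed here because the members are described together below. RefSeq promoter sequences of rat assembly GRCr8, from 250 bases before to 50 bases after the gene start, matched 31 of the 39 members, and 21 of these 31 held at least 1 of the motifs searched. Each stretch is given 5′ to 3′ on the gene's strand, and capitals mark the motif matches.
C3, chr9:2201399-2201458, minus strand: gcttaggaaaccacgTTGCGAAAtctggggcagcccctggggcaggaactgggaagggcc
F9, chrX:143388524-143388619, plus strand: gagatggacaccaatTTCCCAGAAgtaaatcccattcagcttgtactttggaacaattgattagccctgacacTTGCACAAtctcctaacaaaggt
Kng1, chr11:91340318-91340377, minus strand: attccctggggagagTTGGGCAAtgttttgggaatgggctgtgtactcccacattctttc
Plg, chr1:50915429-50915488, minus strand: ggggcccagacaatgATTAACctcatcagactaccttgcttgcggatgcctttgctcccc
C8a, chr5:124866721-124866876, minus strand: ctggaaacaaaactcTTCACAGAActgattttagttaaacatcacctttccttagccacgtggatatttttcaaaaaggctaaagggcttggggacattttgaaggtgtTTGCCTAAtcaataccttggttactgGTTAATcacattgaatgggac
Proz, chr16:83165638-83165771, minus strand: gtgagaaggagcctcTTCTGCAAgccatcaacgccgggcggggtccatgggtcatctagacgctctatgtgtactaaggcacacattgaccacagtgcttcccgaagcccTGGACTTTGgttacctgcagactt

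Motifs were searched on both strands and could overlap one another. The C/EBP motif TTGCNNAA, the STAT motif TTCNNNGAA and the HNF1 core GTTAAT all stand in the C8a promoter, at -136, -230 and -110 from the gene start. C8a also holds the FOXA motif at 40, past the end of the stretch printed. C3 has a C/EBP match at -104, Kng1 at -214, F9 at -45 and Proz at -137. The HNF1 core stands at -67 in Plg, a STAT match at -103 in F9 and the HNF4 motif CAAAGTCCA at -42 in Proz. The C/EBP motif was in 11 of 31 member promoters (35.5%) and in 10.6% of all 33469 rat promoters of the table. The HNF1 core was in 8 (25.8%) against 7.45%, the FOXA motif TGTTTAC in 5 (16.1%) against 3.78%, the HNF4 motif in 1 (3.23%) against 0.391%, and the STAT motif in 5 (16.1%) against 8.87%. A match is a description of letters and not a measured binding site.

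The libraries held 12413774 to 15521648 counted reads, and 13 mitochondrial transcripts took 3.85% to 49.0% of them. Of these libraries 2 stood apart: the mitochondrial share was 44.1% in high-fat diet replicate 3 and 49.0% in SCL-treated replicate 2, and at most 18.8% in the other 7. These were also the libraries with the lowest member levels, since 17 members had their lowest value of the 9 libraries in high-fat diet replicate 3 and 15 in SCL-treated replicate 2, which makes 32 of 39. The hepatocyte markers, 12 genes that were all detected, were also lowest in these 2 libraries. They did not follow the members in every library. In high-fat diet replicate 2 the median log2 level relative to the normal diet mean was -0.40 for the members and -0.002 for the markers. These medians were -0.18 and 0.17 in normal diet replicate 3. The summed level of the hepatocyte markers was 166599 to 210169 CPM (read counts scaled to a common library size with the TMM method) in the normal diet group. It was 83652 to 169806 in the high-fat diet group and 85981 to 254281 in the SCL-treated group. Kupffer cell and macrophage markers summed to 619 to 838, 298 to 679 and 269 to 765 CPM in the same order, and T and NK cell markers to 10.4 to 23.6, 11.8 to 40.4 and 20.4 to 38.2 CPM. Of 103 marker genes listed 85 were analysed here, and 0 of these 85 were without reads in all libraries, while the neutrophil marker Cxcr2 and the pancreas marker Cpa1 stayed under 1 CPM in every library. The part of these marker and mitochondrial differences in the results below was not tested beyond the values without these libraries and with a covariate. In bulk liver, fewer hepatocytes and less RNA per hepatocyte cannot be told apart.

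Among the members, levels per transcript length were compared as the authors' FPKM within the normal diet group, since its total includes mitochondrial reads, whose share varied more in the other groups. C3, the central complement protein, was highest at 2691 ± 660.3 FPKM (SD, n = 3), next to vitronectin (Vtn), a plasma adhesion protein that also blocks the membrane attack complex, at 2643 ± 389. These levels did not differ beyond their spread, and each gene made up 15.5% of the summed FPKM of the members. Prothrombin (F2) followed at 1392 ± 30.4, plasminogen (Plg) at 1027 ± 296 and factor B (Cfb) at 971 ± 183. The 5 highest members held 50.7% of the summed FPKM and the 10 highest held 68.6%. C2 stood at 7.18 ± 3.66, the lectin Mbl2 at 4.45 ± 1.05 and C4b at 2.52 ± 1.91 FPKM, with ranges of mean ± SD that overlapped. The factors that build or feed the convertases spanned the whole order, with C3 at the top and C2 and C4b at the bottom.

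**Figure D1:**
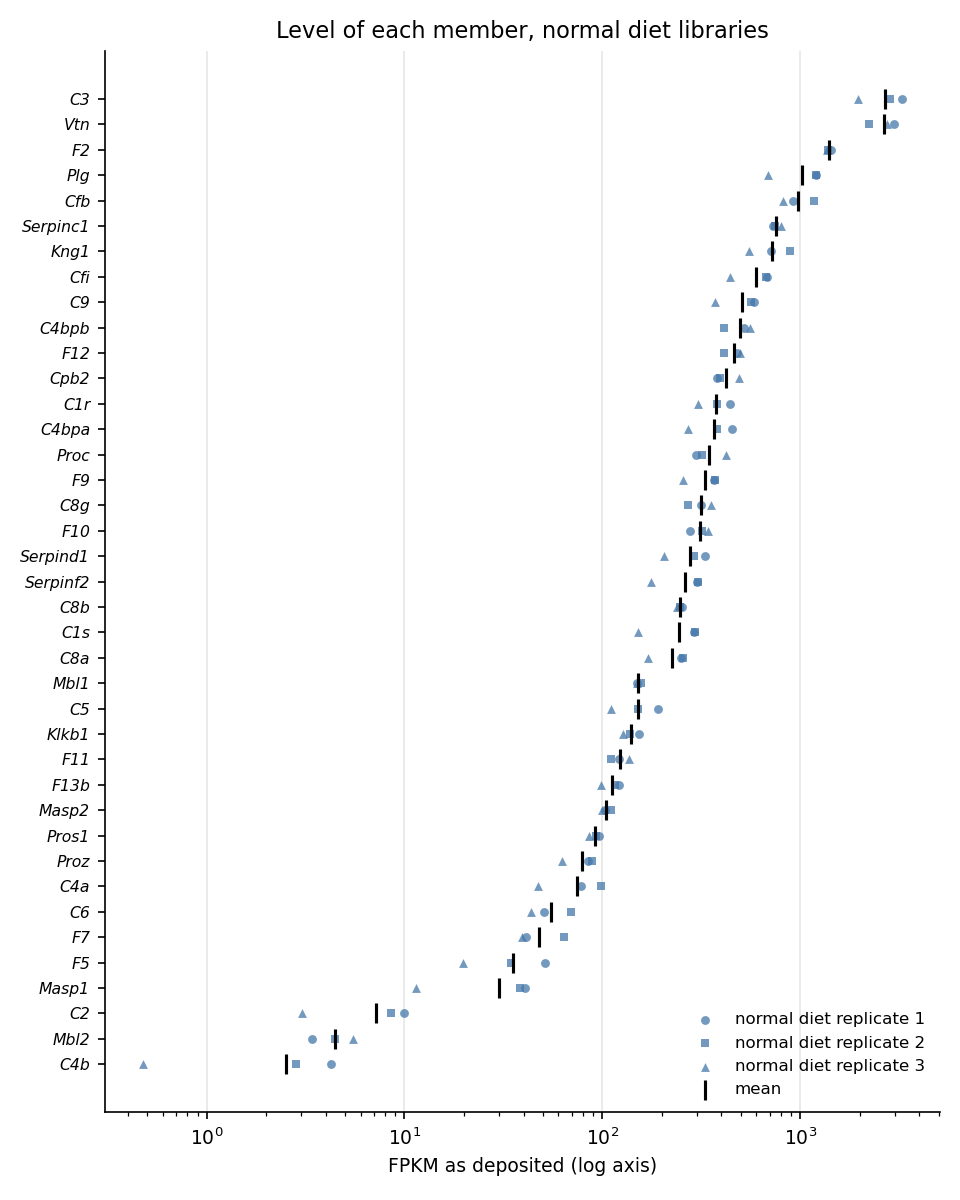
Level of each of the 39 members in the 3 normal diet libraries, as deposited FPKM on a log axis, with 1 marker shape per replicate and a black tick at the mean. C3 and Vtn lie highest, at means of 2691 and 2643, and C4b lowest at 2.52, where the 3 replicates are also farthest apart.

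Within the normal diet group the members differed in how tightly the replicates lay. The coefficient of variation of CPM was lowest for Masp2 (2.99%) and protein S (Pros1, 3.67%) and highest for C4b (75%), Masp1 (50.7%), C2 (48.0%) and factor V (F5, 42.6%). Over all 9 libraries the highest value was under 2 times the lowest for 4 members, C8b, F12, Klkb1 and Proc. It was over 5 times the lowest for 8, among them Kng1 at 9.09 times, C2 at 18.1 and C4b at 34. C4a and C4b are close copies, Kng1 has close kininogen copies in the rat, and how shared reads were assigned is not given in the sources used here, so the levels of these genes are uncertain.

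The members took a smaller share of reads in the high-fat diet libraries than in the normal diet libraries. Their reads made up 5.11% ± 0.556 (SD, n = 3) of the non-mitochondrial reads in the normal diet group, 3.86% ± 0.640 in the high-fat diet group and 4.04% ± 1.02 in the SCL-treated group. Replicates 1 to 3 held 5.60%, 5.23% and 4.51% on the normal diet, 4.46%, 3.92% and 3.19% with the high-fat diet, and 4.42%, 2.89% and 4.82% with SCL. All 3 high-fat diet libraries lay below all 3 normal diet libraries, while the SCL-treated libraries ran from below the high-fat diet range into the normal diet range. The narrowest gap, 4.46% against 4.51%, is far smaller than the SD of either group. The separation ended when mitochondrial reads were kept in the total, where high-fat diet replicate 1 held 4.24% and normal diet replicate 3 held 4.0%.

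In the high-fat diet group 38 of 39 members had a lower fitted level than in the normal diet group, where 47.2% of the 12041 genes tested were lower, and 1 had a higher level (52.8%). The median log2 fold change was -0.52 over the members, 0.03 over all genes tested and -0.52 over the hepatocyte markers, of which 10 of 12 were lower. It was -0.70 over 13 acute-phase proteins (12 lower) and -0.61 over 11 Kupffer cell and macrophage markers (11 lower). Over 7 T and NK cell markers (0 lower) it was 0.91. For 12 members (30.8%) every high-fat diet library lay below every normal diet library, against 5.27% of all genes, and for 0 members every library lay above, against 5.33%. These 12 were C1r, Mbl1, Masp2, C4a, C3, Cfb, C4bpa, F2, F7, Pros1, Klkb1 and Kng1. No single member passed the test: by edgeR's quasi-likelihood test with Benjamini-Hochberg adjustment over all genes, 0 of 39 were called, beside 0.0083% of genes called lower and 0% called higher. C4a and C1r had an unadjusted p under 0.05, both lower (1.55% of all genes), and 0 members were higher at that level (2.77%). DESeq2 on the 9 libraries called 0 members (0.174% of genes lower, 0.241% higher), with 5 lower and 0 higher at an unadjusted p under 0.05 (2% and 3.9% of genes). Limma-voom with quality weights called C4a lower (0.125% of genes) and 0 members higher (0.0914%), with 20 lower and 0 higher at an unadjusted p under 0.05 (14.7% and 15.3% of genes). DESeq2 on only the 6 libraries compared called C4a and Kng1 lower (0.229% of genes) and 0 higher (0.263%). Without the 2 libraries over 40% mitochondrial, the median was -0.35, 37 members were lower and 12 were lower without overlap (7.89% of genes), with 0 higher (7.76%). Removing libraries can only add to such a count, so the 12 above remain in it by construction. Without the same 2 libraries the hepatocyte markers had a median of -0.17, with 8 of 12 lower. The acute-phase proteins were then at -0.54, the Kupffer cell and macrophage markers at -0.42 and the T and NK cell markers at 0.70.

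**Figure D2:**
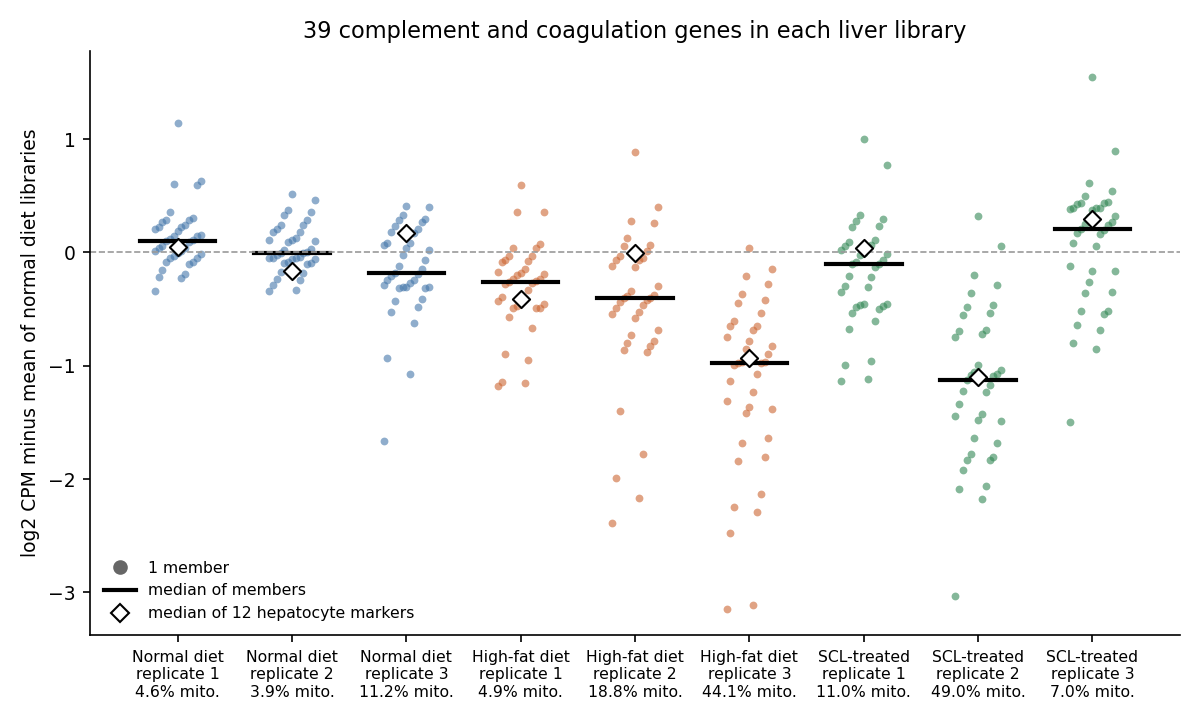
Level of the 39 members in each of the 9 libraries, as log2(CPM + 0.5) relative to the normal diet mean, with 1 point per member. A line marks the median of the members and a diamond the median of the 12 hepatocyte markers. High-fat diet replicate 3 and SCL-treated replicate 2 are lowest, with 38 and 37 of 39 members below the normal diet mean, and in SCL-treated replicate 3 only 14 are below it.

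Between the SCL-treated and the high-fat diet group, 33 of 39 members were higher with SCL (46.7% of all genes) and 6 lower (53.3%), with a median log2 fold change of 0.28, against -0.03 over all genes and 0.30 over the hepatocyte markers. The groups overlapped for every member, where 2.36% of genes lay wholly higher and 2.43% wholly lower. By edgeR's test 0 members were called (0% of genes in each direction) and 0 had an unadjusted p under 0.05 (0.615% of genes higher, 1.34% lower), while DESeq2 called 0 (0.0083% of genes lower, 0% higher) and had 2 higher and 0 lower at an unadjusted p under 0.05 (0.93% and 1.87%). With limma-voom 0 were called (0% of genes), and 5 were higher and 0 lower at that level (3.19% and 4.5%). The median depended on single libraries: it was 0.04 without SCL-treated replicate 3, 0.07 without high-fat diet replicate 3 and 0.56 without SCL-treated replicate 2. Without the 2 libraries over 40% mitochondrial, 31 members were higher and the median was 0.39, against 0.36 over the hepatocyte markers. In that set 19 members (48.7%) lay wholly above the high-fat diet group, against 14.1% of genes, while C8a lay wholly below (14.2%). These counts set only SCL-treated replicates 1 and 3 against high-fat diet replicates 1 and 2. Of the libraries left out, SCL-treated replicate 2 held the lowest value of 15 members and high-fat diet replicate 3 that of 17.

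Between the SCL-treated and the normal diet group, 30 members were lower (48.2% of all genes) and 9 higher (51.8%), with a median of -0.27 against 0.03 over all genes and -0.19 over the hepatocyte markers. A total of 6 members (15.4%) lay wholly below the normal diet group, C1r, Masp1, C5, C6, C8a and Pros1, against 7.81% of genes, and 0 wholly above (7.47%). By edgeR's test 0 members were called (0.0083% of genes lower, 0% higher), and C6 and Masp1 had an unadjusted p under 0.05 (3.55% of genes lower, 3.32% higher). DESeq2 on the 9 libraries called 0 (0.149% of genes lower, 0.183% higher), with 4 lower and 0 higher at that level (4.97% and 4.61% of genes). Limma-voom called C6 lower (0.656% of genes) and 0 higher (0.606%), with 9 lower and 2 higher at an unadjusted p under 0.05 (15.1% and 13% of genes). DESeq2 on only the 6 libraries compared called Masp1 lower (0.714% of genes) and 0 higher (0.422%). This median turned on 1 library. Without SCL-treated replicate 2 it was 0.04 with 16 members lower, and without both libraries over 40% mitochondrial it was 0.03 with 17 lower. In the latter set 7 members lay wholly below (15.4% of genes) and 7 wholly above (15.5%). The comparisons share libraries, so they are set side by side and their agreement is not counted.

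**Figure D3:**
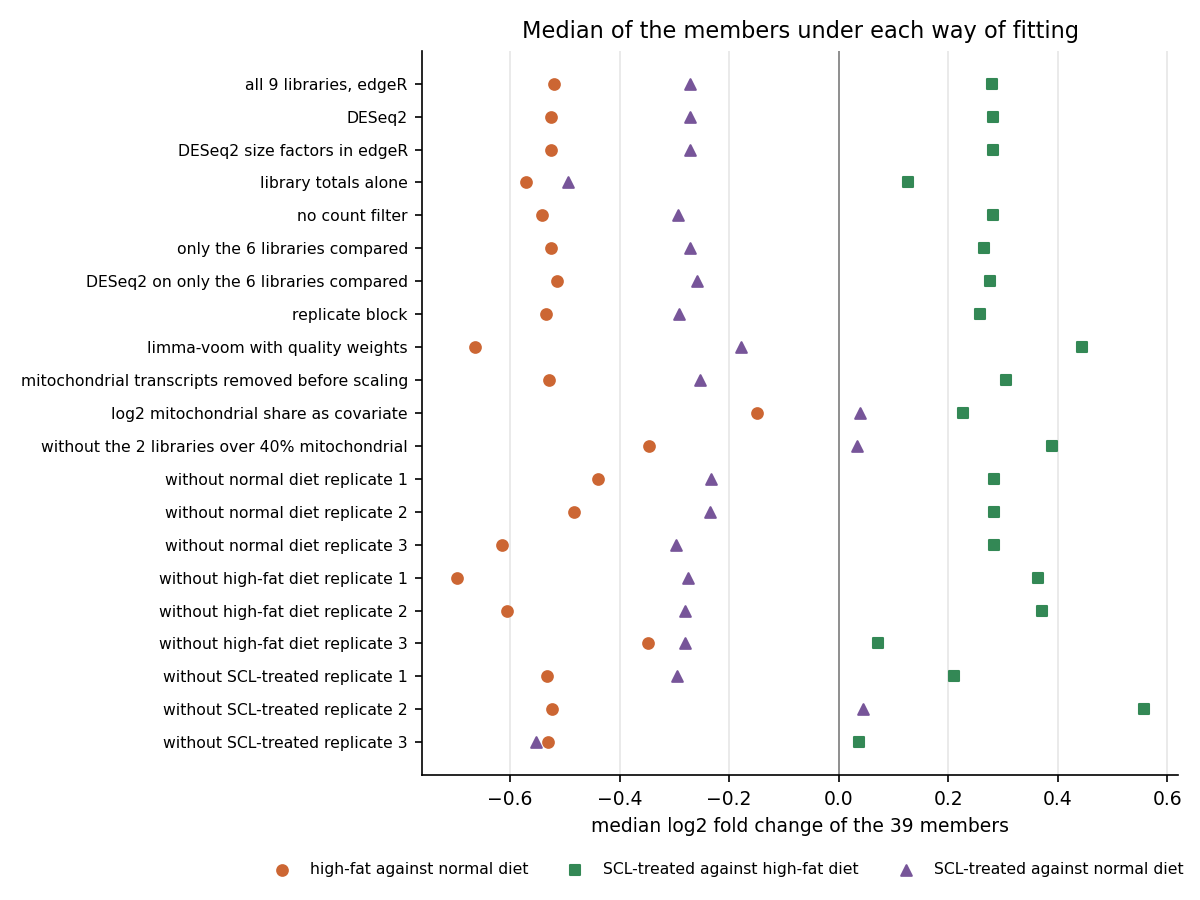
Median log2 fold change of the 39 members in the 3 comparisons under the main fit and under other settings, with each library left out in turn among them. The high-fat against normal diet median stays below 0 under all settings plotted, and the SCL-treated against normal diet median crosses 0.

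By role, the C3 and C5 convertase factors had the lowest median against the normal diet. Within this role C4a and C4b were both at -1.76 with the high-fat diet and C2 at -1.49. C3, Cfb and C5, at -0.73, -0.56 and -0.51, lay nearer the median of all members, -0.52. C2 and C4b had few reads, down to 15 and 7 in a library, and C4a and C4b are close copies with uncertain levels. In the high-fat diet group the median log2 fold change was -1.11 for the 6 convertase factors (6 lower), -0.51 for the 6 factors that start the lectin and classical routes (5 lower), -0.43 for the 5 membrane attack factors (5 lower) and -0.42 for the 4 complement inhibitors (4 lower). On the coagulation side it was -0.46 for the 7 vitamin K-dependent proteins (7 lower), -0.49 for the 4 contact factors (4 lower), -0.52 for the 2 thrombin inhibitors (2 lower) and -0.52 for the 3 fibrinolysis proteins (3 lower), and both F5 and F13b had lower estimates. With SCL against the normal diet the convertase factors were again all lower, with a median of -0.83, and the contact factors had a median of -0.09. Without the 2 libraries over 40% mitochondrial, the high-fat diet medians were -0.79 for the convertase factors, -0.47 for the contact factors, -0.36 for fibrinolysis and -0.33 for the complement inhibitors. They moved by more than 1.5 times for the other roles, to -0.27 for the lectin and classical start, -0.19 for the membrane attack factors (4 of 5 lower), -0.24 for the vitamin K-dependent proteins, -0.25 for the thrombin inhibitors and -0.19 for F5 and F13b. With SCL against the normal diet and without these libraries, the convertase median was -0.54 with 5 of 6 lower, and that of the contact factors was 0.06. The smallest adjusted p of any member by edgeR was 0.81 between the high-fat and the normal diet and 0.66 between SCL and the normal diet. Levels below are CPM for replicates 1, 2 and 3 in that order, differences are edgeR log2 fold changes with their standard error (SE), 3 libraries per group, and adjusted p is over all genes tested.

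**Figure D4:**
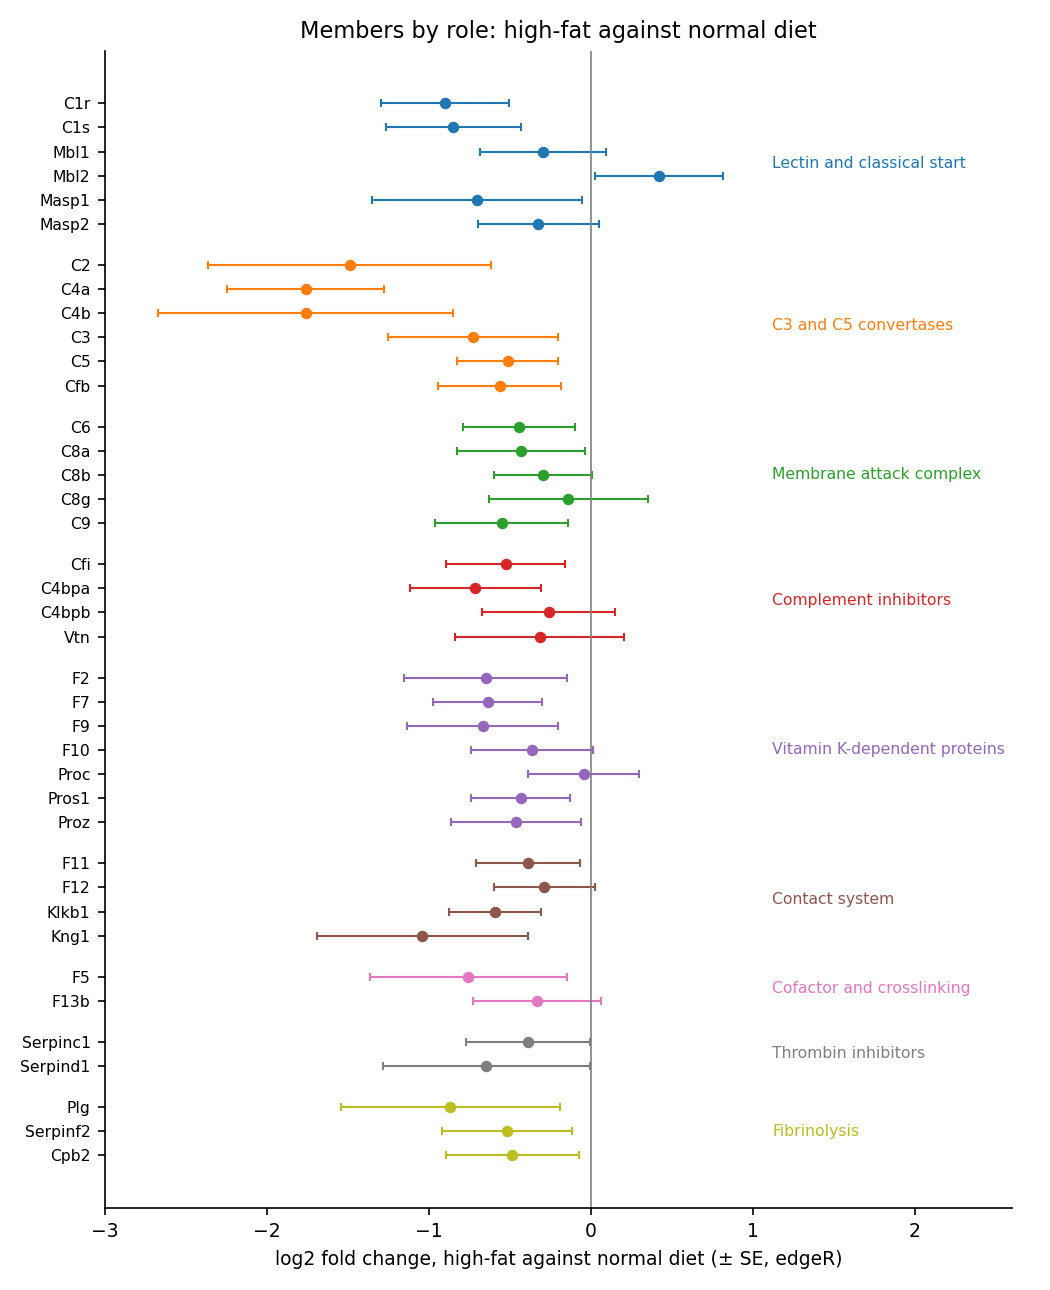
Log2 fold change of each member in the high-fat diet group against the normal diet group, with the edgeR estimate as a point and its standard error as a bar, ordered by role. Of the 39 estimates 38 lie left of 0, Mbl2 lies right, and C4a and C4b lie farthest left at -1.76.

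C1r, the protease that activates C1s, was at 1124, 926 and 849 CPM on the normal diet, 685, 557 and 309 with the high-fat diet, and 701, 344 and 669.7 with SCL. All high-fat diet and all SCL-treated libraries were below the lowest normal diet library. The log2 fold change was -0.90 (SE 0.40, adjusted p = 0.91 by edgeR) in the high-fat diet group and -0.76 (SE 0.39) in the SCL-treated group, both against the normal diet. C1s, its substrate, differed by -0.85 (SE 0.42) in the high-fat diet group, with overlapping libraries.

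Masp1, a protease that rides on the mannose-binding lectins, was at 106, 96.2 and 32.9 CPM on the normal diet, 105, 19.9 and 19.1 with the high-fat diet, and 31.8, 19.6 and 24.4 with SCL. The 3 SCL-treated libraries were all below the normal diet group, and high-fat diet replicate 1 stood at the normal level while the other 2 did not. Against the normal diet the difference was -1.63 with SCL (SE 0.66, adjusted p = 0.66 by edgeR, and 0.033 by DESeq2 on the 6 libraries compared) and -0.70 (SE 0.65) with the high-fat diet. Against the high-fat diet it was -0.93 (SE 0.65) with SCL, and 0.38 without high-fat diet replicate 1.
Its partner Masp2 was 232 to 246 CPM with the normal diet and 157 to 219 with the high-fat diet, without overlap, at -0.32 (SE 0.37), and 106 to 314 with SCL. The lectin Mbl1 was also lower without overlap but by a narrow margin, at -0.29 (SE 0.39). It was 163.1 to 178.5 CPM with the normal diet and 107.1 to 162.4 with the high-fat diet. Mbl2 was the only member with a higher fitted level in the high-fat diet group, at 0.42 (SE 0.40), from 3.59 to 6.36 CPM with the normal diet and 4.0 to 9.11 with the high-fat diet.

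C4a, a form of the thioester protein C4 that joins C2 in the classical convertase, had the smallest p of the 39 members between the high-fat and the normal diet. It was at 389, 468 and 258 CPM on the normal diet, 163, 90.4 and 75.5 with the high-fat diet, and 181, 84.5 and 300.4 with SCL. Every high-fat diet library was below every normal diet library, and the SCL-treated libraries reached into both ranges. Group means were 372 ± 106, 109.5 ± 46.7 and 189 ± 108 CPM (SD, n = 3). The difference was -1.76 (SE 0.48, adjusted p = 0.81 by edgeR) in the high-fat diet group, and 0.78 (SE 0.47) with SCL against the high-fat diet.
For C4a the call depended on the tool. The adjusted p was 0.035 with limma-voom, 0.066 with DESeq2 on all 9 libraries and 0.0099 with DESeq2 on the 6 libraries compared. The authors' deposited table lists C4a at a log2 fold change of 1.77 for normal over high-fat diet, with an adjusted p of 0.0108. With the log2 mitochondrial share as a covariate the edgeR difference was -1.09, adjusted p = 0.48, and without the 2 libraries over 40% mitochondrial it was -1.56, adjusted p = 0.87. Over edgeR fits that leave out 1 library it lay between -2.17 and -1.56.

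C3 was at 15460.2, 12927 and 10217 CPM on the normal diet, 10107, 8479 and 4742 with the high-fat diet, and 8351, 3554 and 11329.7 with SCL. The high-fat diet libraries were all below the normal diet libraries, though replicate 1 came close to the lowest of these, and the SCL-treated libraries overlapped both. C3 differed by -0.73 (SE 0.52) in the high-fat diet group and by -0.01 (SE 0.52) between SCL and the high-fat diet, which became -0.39 to 0.34 when 1 library was left out. Its share of the members' summed FPKM was 15.5% ± 2.31 on the normal diet, 13.45% ± 2.11 with the high-fat diet and 10.70% ± 0.59 with SCL (SD, n = 3).
Factor B, which pairs with C3 in the alternative convertase, was 2090.1 to 2626 CPM with the normal diet and 1326 to 1676 with the high-fat diet, without overlap, at -0.56 (SE 0.38). C5, whose cleavage starts the membrane attack complex, was 601 to 948 CPM on the normal diet and 462 to 578 with SCL, without overlap, at -0.55 (SE 0.31). C2 and C4b had the widest errors, at -1.49 (SE 0.87) and -1.76 (SE 0.91) in the high-fat diet group. They also had few reads, down to 15 for C2 and 7 for C4b in a library.

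C6, an early subunit of the membrane attack complex, was at 139.8, 183 and 131 CPM on the normal diet, 158, 86.1 and 88.9 with the high-fat diet, and 68.0, 46.2 and 93.2 with SCL. The SCL-treated libraries all lay below the normal diet group, and the high-fat diet libraries lay between and overlapped both. With SCL the difference from the normal diet was -1.13 (SE 0.35, adjusted p = 0.66 by edgeR), and limma-voom gave -1.15 with an adjusted p of 0.041. Without the 2 libraries over 40% mitochondrial the edgeR difference was -0.92.
C8a, a subunit that inserts into the membrane, was 643 to 858 CPM on the normal diet and 286 to 567 with SCL, without overlap, at -0.80 (SE 0.40). C9, which forms the pore, was at 1274, 1189 and 889.6 CPM on the normal diet, 963, 758 and 566 with the high-fat diet, and 1032, 469.7 and 1274 with SCL. High-fat diet replicate 1 lay above the lowest normal diet library, and the difference was -0.55 (SE 0.41). C8b and C8g differed by -0.29 (SE 0.30) and -0.14 (SE 0.49) in the high-fat diet group, with overlap. The C8a, C8b and C8g proteins form 1 complex, and in SCL against normal diet their genes had estimates of either sign, with C8a at -0.80 and C8g at 0.41.

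Among the complement inhibitors, Vtn was at 4593, 3279 and 4643 CPM on the normal diet, 3441, 4489 and 2109.8 with the high-fat diet, and 4823, 1470.1 and 5591 with SCL. The 3 groups overlapped, at -0.32 (SE 0.52) for the high-fat against the normal diet, and it ranged from -0.60 with high-fat diet replicate 2 left out to -0.08 with replicate 3 left out. C4bpa, the chain of C4b-binding protein that binds C4b, was at 1007, 815 and 662 CPM on the normal diet, 581, 618 and 314 with the high-fat diet, and 760.0, 322 and 642 with SCL. All high-fat diet libraries were below the normal diet libraries, at -0.72 (SE 0.40).
Its beta chain, C4bpb, overlapped between the groups at -0.26 (SE 0.41). Factor I (Cfi), the protease that inactivates C3b and C4b, was at 1294, 1228 and 919 CPM on the normal diet, 964, 848 and 576 with the high-fat diet, and 1392, 821 and 1653 with SCL. With SCL it was 0.70 (SE 0.37) above the high-fat diet, where SCL-treated replicates 1 and 3 exceeded every normal diet library and replicate 2 did not.

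**Figure D5:**
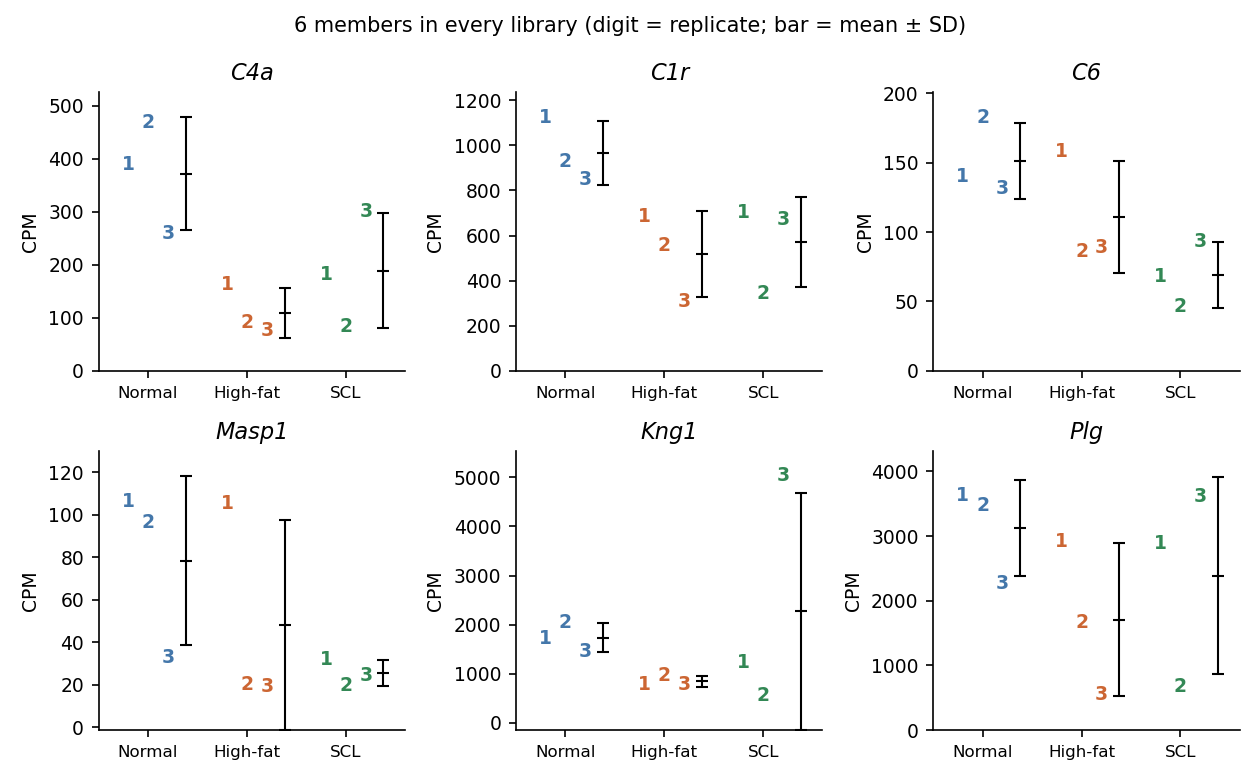
CPM of 6 members in each library, as points by group, with the mean as a line and the SD (n = 3) as a bar. C4a is lower in all 3 high-fat diet libraries than in any normal diet library, and SCL-treated replicate 3 stands far above the other libraries for Kng1, at 5028.

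F2, the precursor of thrombin, was at 2686, 2496 and 2822 CPM on the normal diet, 2024, 2039 and 1034 with the high-fat diet, and 2649, 778 and 2996 with SCL. The high-fat diet libraries all lay below the normal diet libraries, and with SCL only replicate 2 did. F2 differed by -0.65 (SE 0.50) in the high-fat diet group. Factor VII (F7), which starts clotting with tissue factor, was at 69.6, 104 and 73.4 CPM on the normal diet, 43.3, 56.0 and 59.4 with the high-fat diet, and 63.6, 48.1 and 109.6 with SCL. It too was lower in all high-fat diet libraries, at -0.64 (SE 0.34), and with SCL it was 0.48 (SE 0.33) above the high-fat diet.

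Protein Z (Proz), a cofactor in the inhibition of factor Xa, was at 314, 315 and 254 CPM on the normal diet, 276, 226 and 139 with the high-fat diet, and 254, 108 and 311 with SCL. Its groups overlapped, at -0.46 (SE 0.40) for the high-fat diet and -0.39 (SE 0.40) for SCL against the normal diet. Protein S, the cofactor of protein C, was 264 to 283 CPM on the normal diet, 138 to 249 with the high-fat diet and 168 to 262 with SCL, below the normal diet in every library of both groups, at -0.44 (SE 0.31) and -0.29 (SE 0.31). Factors IX and X (F9 and F10) differed by -0.67 (SE 0.47) and -0.36 (SE 0.38) in the high-fat diet group, and protein C (Proc) by -0.05 (SE 0.34), the smallest difference of the 7 vitamin K-dependent proteins.

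Kininogen (Kng1), the source of bradykinin and cofactor of the contact system, had the largest estimated difference of the members between SCL and the high-fat diet. It was at 1714, 2039 and 1459 CPM on the normal diet, 775, 973 and 784 with the high-fat diet, and 1240.1, 553 and 5028 with SCL. The high-fat diet libraries were closely spaced and all below the normal diet libraries, at -1.04 (SE 0.65), while the SCL-treated libraries ran from below the high-fat diet range to above the normal diet range. Against the high-fat diet, Kng1 with SCL was at 1.43 (SE 0.66). That difference was 0.09 without SCL-treated replicate 3 and 1.90 without SCL-treated replicate 2. DESeq2 on the 6 libraries compared gave -1.04 with an adjusted p of 0.028 for the high-fat against the normal diet, and the authors' deposited table lists Kng1 at 1.05 for normal over high-fat diet with an adjusted p of 0.0469.

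Plasma prekallikrein (Klkb1), which releases bradykinin from kininogen, was at 363, 314 and 329 CPM on the normal diet, 237, 242 and 188 with the high-fat diet, and 271, 209 and 347 with SCL. It was lower in every high-fat diet library than in any normal diet library, at -0.59 (SE 0.28). Factors XI and XII overlapped between the groups, at -0.39 (SE 0.32) for F11 and -0.29 (SE 0.31) for F12. Factor V, the cofactor of factor Xa, was at 284, 183 and 119 CPM on the normal diet, 236, 69.3 and 41.5 with the high-fat diet, and 130.0, 51.1 and 102 with SCL, and differed by -1.05 (SE 0.61) with SCL and -0.76 (SE 0.61) with the high-fat diet from the normal diet. The latter was -1.83 without high-fat diet replicate 1, -0.50 without replicate 2 and -0.36 without replicate 3. The carrier subunit of factor XIII (F13b) was at 259, 239.8 and 232 CPM, then 250.5, 232 and 98.1, then 263, 150.4 and 318 in the same order of groups. F13b thus stood near the normal level in 2 of 3 high-fat diet libraries, at -0.33 (SE 0.39).

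Antithrombin (Serpinc1) was at 2286, 2264 and 2751 CPM on the normal diet, 1530.0, 2535 and 1507 with the high-fat diet, and 2467, 1651 and 3153 with SCL. High-fat diet replicate 2 lay inside the normal range, and the difference was -0.39 (SE 0.38). Heparin cofactor II (Serpind1) was at 699.5, 588 and 474 CPM on the normal diet, 567, 439 and 118 with the high-fat diet, and 604, 139 and 779 with SCL. The libraries at 118 and 139 are the 2 over 40% mitochondrial, and the high-fat diet difference was -0.65 (SE 0.64) with them and -0.23 without them.

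Plg was at 3623, 3469.8 and 2268 CPM on the normal diet, 2915, 1664 and 548 with the high-fat diet, and 2889, 675 and 3609 with SCL. Its lowest values were in the 2 libraries over 40% mitochondrial. Plg differed by -0.87 (SE 0.67) in the high-fat diet group, by -0.45 without high-fat diet replicate 3 and by -0.03 with the log2 mitochondrial share as a covariate. Antiplasmin (Serpinf2), which inhibits plasmin, was at 663, 643 and 425 CPM on the normal diet, 552, 352 and 304 with the high-fat diet, and 561, 275 and 673 with SCL, at -0.52 (SE 0.40) for the high-fat diet, with overlap. Cpb2, a carboxypeptidase that slows clot lysis, was at 499.6, 493 and 703 CPM, then 413, 514 and 283, then 549, 254 and 731. It differed by -0.49 (SE 0.41) in the high-fat diet group and overlapped.

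Other genes of the pathways, 73 listed and 63 tested in 8 lists, had a smaller median. In the high-fat diet group 40 were lower (47.2% of all genes) and 23 higher (52.8%), with a median of -0.14. Without the 2 libraries over 40% mitochondrial 36 were lower, at a median of -0.08. By edgeR's test 0 were called (0.0083% of all genes lower, 0% higher). At an unadjusted p under 0.05, 2 were lower and 2 higher, Cd46 among the latter (1.55% and 2.77% of all genes). With SCL against the high-fat diet 40 were higher (46.7% of all genes), at a median of 0.12. Of the 63 tested 0 had an unadjusted p under 0.05 (0.615% of all genes higher, 1.34% lower). Against the normal diet SCL gave 32 lower and 31 higher (48.2% and 51.8% of all genes), with 1 lower and 1 higher at that level (3.55% and 3.32%). The other complement proteins were nearest to the members, with 11 of 12 lower in the high-fat diet group and a median of -0.44. With SCL 11 of 12 were higher than with the high-fat diet. Without the 2 libraries over 40% mitochondrial, 9 of 12 were lower in the high-fat diet group, at a median of -0.26. In the same set 3 of 12 were lower with SCL than with the high-fat diet. Their smallest p was that of C-reactive protein (Crp), which can start the classical route, at -1.43 (SE 0.87) in the high-fat diet group and -1.46 (SE 0.87) with SCL against the normal diet, and of properdin (Cfp), which stabilises the alternative convertase, at 0.28 (SE 0.28) with SCL against the high-fat diet. Crp overlapped between the groups, at 2334 to 6316 CPM on the normal diet, 338 to 3769 with the high-fat diet and 386 to 2622 with SCL.

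Of 9 other complement inhibitors 7 were lower in the high-fat diet group, with a median of -0.09. The smallest p was that of Cd46, a membrane cofactor for the breakdown of C3b, with 3 to 5 reads in a normal diet library (0.217 to 0.305 CPM), 1.18 to 1.91 CPM with the high-fat diet and 0.175 to 2.23 with SCL. Cd46 passed the minimum count of 10 only through libraries of the other groups, so its difference is not given. Of 6 complement receptors 4 were lower, with Vsig4, the C3b receptor of Kupffer cells, at -1.13 (SE 0.45, adjusted p = 0.91 by edgeR). Vsig4 was 27.6 to 33.3 CPM on the normal diet, 7.47 to 17.8 with the high-fat diet and 9.61 to 34.7 with SCL, at 0.76 (SE 0.45) with SCL against the high-fat diet, and 11 of 11 Kupffer cell and macrophage markers tested, Vsig4 among them, were lower in the high-fat diet group. C3ar1, the C3a receptor, had the smallest p with SCL against the normal diet and was under 2 CPM in every library. It was 0.361 to 1.15 CPM on the normal diet and 0 to 0.408 with SCL. Like Cd46, it passed the minimum count only through libraries of the other groups, so its difference is not given.

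Among fibrinogen and other clotting factors 3 of 7 were lower in the high-fat diet group. Fga, the fibrinogen alpha chain, was at -1.11 (SE 0.61), from 4839 to 8643 CPM on the normal diet to 1946 to 4364 with the high-fat diet, without overlap. Tissue factor (F3) was at 1.24 (SE 0.74) with SCL against the high-fat diet and 1.41 (SE 0.74) against the normal diet. F3 had as few as 6 reads in a library. It was 0.434 to 0.853 CPM on the normal diet and 0.470 to 1.18 with the high-fat diet. With SCL it was 1.16, 3.59 and 0.614 CPM in replicate order, overlapping both groups. The highest value was in SCL-treated replicate 2, with a mitochondrial share of 49.0%, and replicate 3 lay inside the normal diet range. Among other clotting inhibitors 3 of 8 were lower, and Serpina5, the protein C inhibitor, was at 2.21 (SE 0.76, adjusted p = 0.91 by edgeR) in the high-fat diet group and 2.24 (SE 0.76, adjusted p = 0.66 by edgeR) with SCL against the normal diet. Serpina5 was low in all groups, at 0.723 to 0.914 CPM on the normal diet, 0.732 to 7.91 with the high-fat diet and 2.11 to 6.02 with SCL. Tfpi, the inhibitor of tissue factor, was at 0.37 (SE 0.29) with SCL against the high-fat diet.

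Of 6 other fibrinolysis genes 3 were lower, and the urokinase gene Plau was at -1.26 (SE 0.59) in the high-fat diet group and -0.997 (SE 0.58) with SCL against the normal diet. Habp2, a plasma serine protease, was at 0.90 (SE 0.43) with SCL against the high-fat diet, with overlap (83.2 to 142 CPM with the high-fat diet, 97.5 to 323 with SCL). Of 4 genes for the vitamin K cycle and factor export 3 were lower, with Mcfd2 at -0.49 (SE 0.34) in the high-fat diet group and 0.59 (SE 0.35) with SCL against it. Lman1, its partner in carrying factors V and VIII out of the endoplasmic reticulum, was at -1.55 (SE 0.86) with SCL against the normal diet. Its libraries overlapped, at 13.7 to 56.1 CPM on the normal diet and 5.82 to 18.2 with SCL. Of 11 hepatocyte transcription factors 6 were lower in the high-fat diet group, at a median of -0.03. Stat3, which carries the interleukin 6 signal to acute-phase genes, was at 176, 122 and 61.2 CPM on the normal diet, 90, 43.3 and 56.7 with the high-fat diet, and 59.3, 58.1 and 51.6 with SCL. It differed from the normal diet by -0.92 (SE 0.39, adjusted p = 0.91 by edgeR) with the high-fat diet and by -1.09 (SE 0.40, adjusted p = 0.66 by edgeR) with SCL, where no library overlapped the normal diet group. Hnf4a, a nuclear receptor that drives many hepatocyte genes, was at -0.61 (SE 0.40) with SCL against the high-fat diet.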

How the data were processed

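Per the labels' protocols, total RNA of 9 liver samples went through Trizol extraction and a NEBNext Ultra library kit. The authors deposited 2 tables with the raw count of each gene, a size-factor normalized signal and FPKM, per the file headers. The tables also give a deposited log2 fold change with its p-value, raw and adjusted. DESeq2 and the mouse build mm9 are named, per the submitters' processing notes, but the build was not taken as that of these rat counts. The aligner, the counter and the strand setting: not given in the sources used here. Counts of the high-fat diet libraries were the same in both tables. Values came from 15565 genes in both tables, and no library repeated another (smallest chi-square per degree of freedom 38.5).

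The deposited counts of all 9 libraries entered 1 edgeR 4.0.16 fit (R 4.3.3) whose single term was group, leaving 6 residual degrees of freedom. The filterByExpr filter (minimum count 10) kept 12041 genes, and TMM set the scaling. All 39 members passed. Each SE was obtained from the log2 fold change and the F value, as its size over the root of F. A gene was called at a Benjamini-Hochberg adjusted p under 0.05. The fit was tested on simulated counts. Per-library medians use a pseudocount of 0.5 CPM.

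Members and lists were chosen with earlier results of these data known. The rule for named genes gives library values, per role, for the member highest in FPKM, for the one with the smallest p in each comparison and for any with an unadjusted p under 0.05. Other members are given by ranges and differences. Each pathway list names its gene of smallest p in each comparison, except 1 that is not reported here.

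Alternatives were DESeq2 1.42.0, its size factors, library totals, fits with no count filter or on the compared groups only, a replicate block, leaving out 1 library at a time, limma 3.58.1 voom with quality weights, the log2 mitochondrial share as covariate, and removal of the 2 libraries over 40% mitochondrial. DESeq2 on the 6 libraries compared and non-overlap without those 2 libraries were chosen after seeing the data. C4b and C2 had the fewest reads, down to 7 and 15 in a library, and the largest SE of the members in the high-fat diet comparison. Python 3.11.15, pandas 2.3.3 and matplotlib 3.10.9 made tables and plots.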

Additional observations from a re-analysis of the deposited data

How the results depend on the processing

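The high-fat against normal diet median of the members stayed below 0 in every alternative run, between -0.70 and -0.35 when 1 library was left out and at -0.15 with the mitochondrial share as covariate. Members called there were 1 with limma-voom (0.125% of genes called lower) and 2 with DESeq2 on the 6 libraries compared (0.229%). With SCL against the normal diet these tools called 1 and 1 (0.656% and 0.714%). The SCL-treated against normal diet median was 0.040 with the covariate and 0.034 without the 2 libraries over 40% mitochondrial, with 17 members lower in each, and -0.55 to 0.044 with 16 to 36 members lower when 1 library was left out. The cause was not tested. With mitochondrial reads in the total, the members' mean share was 4.79% in the normal diet group and 3.07% in the high-fat diet group, and the libraries of these groups overlapped.

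For single members in the high-fat against normal diet comparison, 11 of 39 changed sign somewhere. With limma-voom, C4bpb was at 0.13, C8g at 0.092 and Proc at 0.25. With the covariate, C8a was at 0.0059, C8g 0.27, F13b 0.074, Masp2 0.045, Mbl1 0.098, Proz 0.056, Serpind1 0.17, Serpinf2 0.00080 and Vtn 0.13. Without the 2 libraries C8g was at 0.12. Leaving out 1 library gave C8g -0.50 to 0.11, Proc -0.23 to 0.18 and C4bpb -0.61 to 0.040. Leaving out 1 library in turn changed the sign of 21 of 39 members for SCL against the high-fat diet and of 20 of 39 for SCL against the normal diet. For the high-fat against the normal diet it changed the sign of 3 of 39. For SCL against the high-fat diet, Masp1 was at 0.21 with limma-voom and -1.32 to 0.38 when 1 library was left out, and Cpb2 at -0.0075 to 0.67. For SCL against the normal diet, the covariate gave Plg 0.39, Proz 0.040 and Serpind1 0.46, removal of the 2 libraries gave Plg 0.047 and Serpind1 0.22, and leaving out 1 library gave Plg -0.82 to 0.057 and Serpind1 -0.68 to 0.23. The cause was not tested.

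No label states that replicate numbers pair the libraries, and the numbers were used as names. Correlations of same-numbered deviations from the group means were 0.65, -0.32 and 0.45 for the high-fat and normal diet. They were 0.35, 0.03 and -0.43 for SCL and the high-fat diet, and 0.14, -0.15 and -0.10 for SCL and the normal diet. With 3 libraries per group these values cannot decide whether libraries shared a block. A fit with the replicate block called 0 members in each comparison, with medians of -0.53 for the high-fat against the normal diet, 0.26 for SCL against the high-fat diet and -0.29 for SCL against the normal diet.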
